A study of Mus musculus with 4 samples.

Results

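The ubiquitin-specific proteases, encoded by the Usp genes, were followed in messenger RNA of mouse oocytes with and without a knockdown of Parp12. Members were the genes whose symbol is Usp followed by a number and at most an x or an l, which gave 49 of the 55453 genes in the table. Another 10 symbols that begin with Usp and a digit did not match, among them the Usp17 genes and Usp9y. The libraries were 2 of genotype Parp12 knockdown and 2 of genotype WT, here called control, all from oocytes separated directly from the ovary at the germinal vesicle stage. Parp12 belongs to the PARP family of ADP-ribosyltransferases, and the study asks how the oocyte transcriptome differs when it is reduced. The sources used here give neither the way the knockdown was made, nor the strain and age of the mice, nor the number of oocytes in a library. The labels do not state whether the replicates of a group are separate mice or collections. The p-values therefore reflect no more than the variation among these 4 libraries, and that variation may be technical.

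Ubiquitin is a small protein that is attached to other proteins and often marks them for the proteasome or for sorting in the cell. Ubiquitin-specific proteases remove it again, by an active-site cysteine that lies in a short conserved stretch near the start of the catalytic domain. They form the largest family of deubiquitinases in mammals. Family members differ in what flanks this domain, and so in where they act: on chromatin, at the endosome, on mitochondria, at the endoplasmic reticulum or on the proteasome. An oocyte at the germinal vesicle stage is held in meiotic prophase with a stored pool of messenger RNA, and its resumption of meiosis depends on timed protein destruction.

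The stretch around the active-site cysteine is what the family has in common, and it was read from the coding part of GENCODE mouse release 21 transcripts (mm10). The search pattern allowed for the longer stretch of Usp53 and Usp54. Where no cysteine matched, another residue at that position was accepted. Full coding transcripts were searched from the longest down, and in some members, such as Usp21 and Usp54, the match lay in a shorter one. By this search the stretch was located in 49 of 49 members, which is not a test of its presence. Coding sequences ran from 366 to 3582 codons, and the codon at the position of the cysteine was number 41 at the earliest and number 1940 at the latest. In 48 members this codon stood for cysteine, TGC in 27 and TGT in 21. Usp39, a factor of the spliceosome, had GAC there, which codes for aspartate. The stretches below belong to the members that the results turn on, that is those with high RNA, their low relatives, and the members with the smallest p. They are coding exon sequence, 5′ to 3′, and capitals mark the codon at the active-site position. Those of Usp46 and Usp12 each cross an exon junction, so their coordinates include an intron.
Usp19, chr9:108495642-108495680, plus strand: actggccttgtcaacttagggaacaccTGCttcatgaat
Usp7, chr16:8707680-8707718, minus strand: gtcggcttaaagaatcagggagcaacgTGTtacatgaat
Usp46, chr5:74032494-74037047, minus strand: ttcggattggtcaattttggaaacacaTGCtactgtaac
Usp12, chr5:146763391-146768951, minus strand: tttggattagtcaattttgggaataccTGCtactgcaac
Usp28, chr9:49003932-49003970, plus strand: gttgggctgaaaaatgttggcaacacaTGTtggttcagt
Usp25, chr16:77050510-77050548, plus strand: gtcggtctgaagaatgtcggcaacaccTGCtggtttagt
Usp8, chr2:126751074-126751112, plus strand: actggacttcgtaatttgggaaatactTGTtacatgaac
Usp50, chr2:126780468-126780506, minus strand: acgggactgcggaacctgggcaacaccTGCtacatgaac
Usp9x, chrX:13145192-13145230, plus strand: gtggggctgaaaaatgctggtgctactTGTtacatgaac
Usp54, chr14:20607094-20607138, minus strand: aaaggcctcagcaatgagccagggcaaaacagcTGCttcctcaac
Usp39, chr6:72337714-72337752, minus strand: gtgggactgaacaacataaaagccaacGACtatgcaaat
Usp54 and its relative Usp53 carried a stretch of 45 bases where the other members had 39.

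Parp12 itself had 32 and 86 counts in the knockdown libraries, against 14279 and 9419 in the control libraries, and fell by 7.51 on the log2 scale (SE 0.34, adjusted p = 1.27e-07 by edgeR's quasi-likelihood test with Benjamini-Hochberg adjustment). The knockdown libraries held 42576499 and 35805122 counts and the control libraries 45230773 and 40938363, so that 3 counts, taken as the limit that a count of 0 allows, equalled 0.0663 to 0.0838 CPM (counts in every 1000000 of a library). Such limits cover counting error only. All 16 oocyte markers had counts and summed to 27420 and 28120 CPM in knockdown libraries, against 26060 and 26840 CPM in control libraries. Of 15 granulosa and cumulus cell markers, 7 had counts in any library and 8 were at 0 in all 4, among them Amh, Amhr2 and Foxl2. Cyp19a1 had 26.7 and 23.8 CPM in knockdown libraries and 24.7 and 29.3 CPM in control libraries. Kitl had 15.3 and 13.7 CPM in knockdown libraries and 21.6 and 18.15 CPM in control libraries. Fshr also had counts in all 4 libraries. The 15 markers summed to 43.8 and 45.4 CPM in knockdown libraries and 48.5 and 52.2 CPM in control libraries. Theca and stroma markers summed to 1.36 and 1.45 CPM in knockdown libraries and 3.29 and 5.99 CPM in control libraries, and 4 blood markers to 3.05 and 2.40 CPM in knockdown libraries and 0.486 and 1.10 CPM in control libraries. In such bulk samples fewer cells of a type and less RNA per cell cannot be told apart.

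Most of the family was present as RNA in the oocyte, and a few members supplied much of it. Levels were compared between genes as RPKM, the CPM divided by the summed exon length in kilobases. Averaged over the 4 libraries, 41 of 49 members reached 1 RPKM and 28 reached 10 RPKM. The median member lay at 11.3 RPKM, against 3.28 RPKM for the median of 15868 tested genes, and the highest member stood 989-fold above the lowest. Together the family took 0.711% and 0.701% of all counts in the knockdown libraries and 0.742% and 0.723% in the control libraries. The 5 members with most counts held 46.2% and 46.6% of the family's counts in the knockdown libraries and 47.8% and 46.4% in the control libraries. Levels given as TPM put the same 10 members on top in the same order.

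Usp19, an enzyme anchored in the endoplasmic reticulum membrane that acts in protein quality control, was the most abundant member. It had 124.8 and 116.4 RPKM in knockdown oocytes, against 132.4 and 128.6 RPKM in control oocytes, and ranked 344 of all tested genes by its mean level. Usp7, a nuclear enzyme that acts on Mdm2 and p53, followed with 98.8 and 108.0 RPKM in knockdown oocytes and 107.4 and 105.9 RPKM in control oocytes. The ranges of Usp19 and Usp7 over the 4 libraries did not overlap. Usp46, a small enzyme that works with the WD-repeat activators Wdr48 and Wdr20, had 71.7 and 74.1 RPKM in knockdown oocytes and 76.8 and 66.4 RPKM in control oocytes. Usp30, which sits in the mitochondrial outer membrane and opposes mitophagy, had 65.6 and 63.6 RPKM in knockdown oocytes and 64.8 and 67.8 RPKM in control oocytes, which overlapped the range of Usp46.

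Usp28, known for stabilising Myc and for its part in the p53 pathway, stood next, clear of Usp30, with 54.2 and 52.5 RPKM in knockdown oocytes and 55.8 and 50.6 RPKM in control oocytes. Usp1, which removes ubiquitin from Fancd2 and Pcna, had 42.5 and 42.9 RPKM in knockdown oocytes and 51.9 and 44.3 RPKM in control oocytes. Usp9x, the X-linked relative of the Drosophila gene fat facets, had 38.1 and 37.7 RPKM in knockdown oocytes and 42.4 and 42.2 RPKM in control oocytes. Its knockdown and control values did not overlap, and its range ended just below that of Usp1. By transcript length in place of exon length, a choice made after the data were seen, the 5 most abundant members stayed in the same order, but Usp9x (50.8 RPKM) stood above Usp1 (47.4 RPKM) and Usp16 (64.3 RPKM) above both. Usp38 averaged 37.2 ± 3.37 RPKM in knockdown oocytes and 39.1 ± 0.288 RPKM in control oocytes (SD, n = 2 each). Usp15, which acts on receptor-regulated Smads, averaged 29.0 ± 1.90 RPKM in knockdown oocytes and 30.3 ± 3.11 RPKM in control oocytes, and Usp8, which sorts receptors at the endosome, 30.2 ± 1.36 RPKM in knockdown oocytes and 28.5 ± 0.0497 RPKM in control oocytes. Down the whole order, 8 of the 48 neighbouring pairs had ranges over the 4 libraries that were apart, and 40 overlapped.

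**Figure D1:**
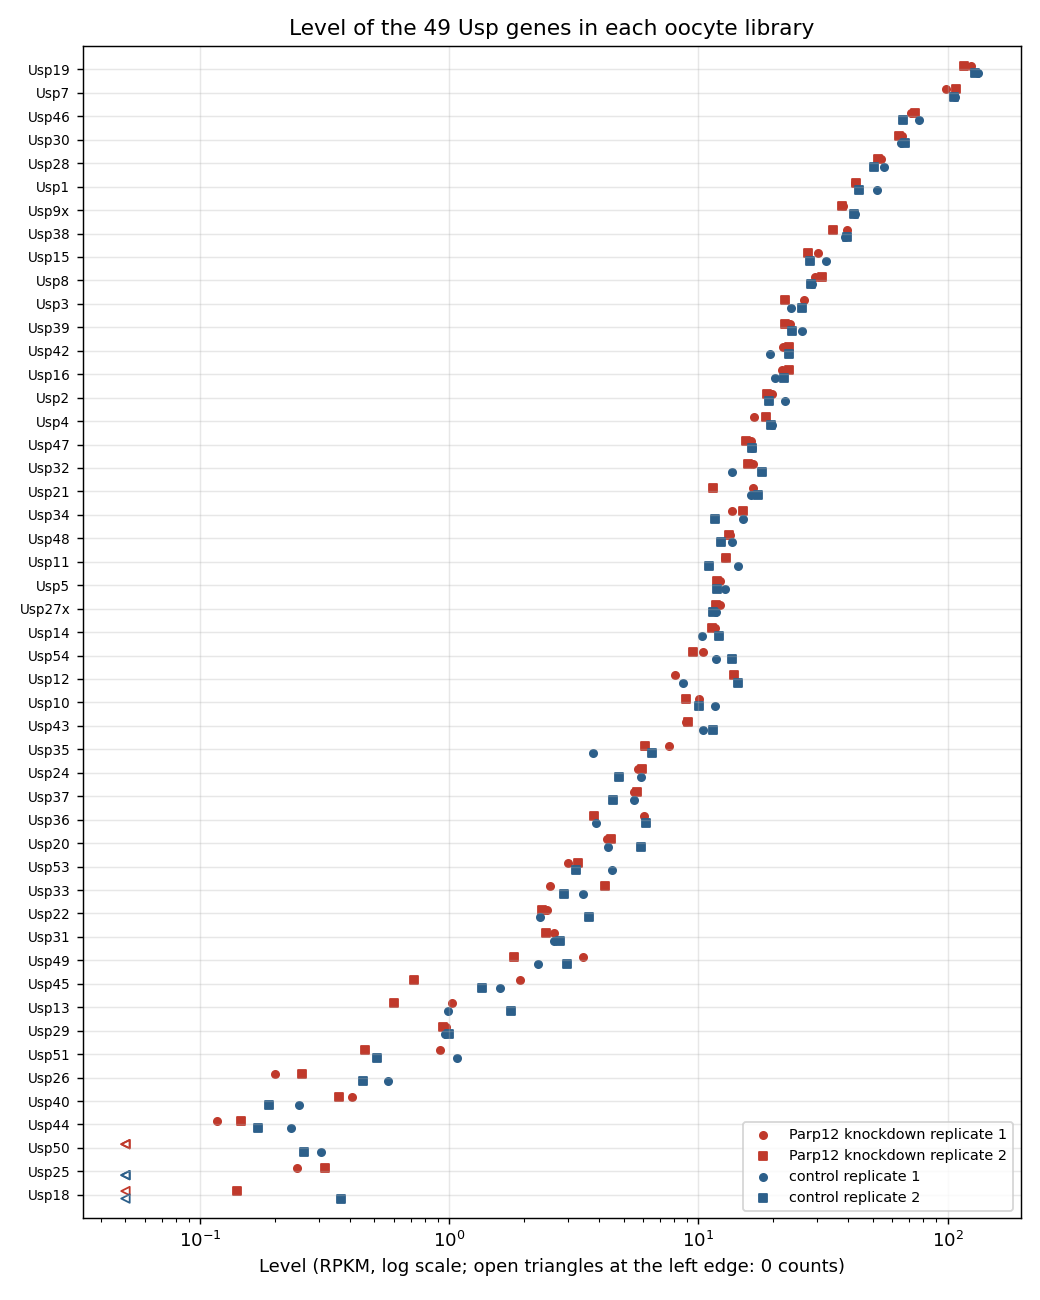
Level of each of the 49 Usp genes in RPKM on a log axis, with a point for each knockdown and each control library and open triangles for 0 counts. Usp19 and Usp7 lead at over 98 RPKM in every library, 8 members average under 1 RPKM, and points of the 2 groups lie on top of each other for most members.

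Against this background of levels, the knockdown and control oocytes differed little across the family. By edgeR's quasi-likelihood test with Benjamini-Hochberg adjustment over all 15868 tested genes, 0 of the 49 members passed an adjusted p of 0.05, where 1 gene in all did, Parp12 (0.0063% of tested genes). At an unadjusted p under 0.05 there were 4 members (8.16%), against 5.51% of all tested genes. These were Usp25 with higher values in knockdown oocytes, where 2.94% of all tested genes were, and Usp54, Usp9x and Usp50 with lower values, where 2.57% were. DESeq2, run as an alternative, called 305 of 16389 genes with an adjusted p (1.86%), and 2 of them were members. Usp25 was called higher in knockdown oocytes (DESeq2 adjusted p = 0.0122), as were 1.07% of those genes, and Usp9x lower (DESeq2 adjusted p = 0.0280), as were 0.793%.

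More members had lower than higher values in knockdown oocytes, and this lean of the family was not tested. The log2 fold change, knockdown over control, was below 0 in 31 of 49 members (63.3%), against 49.6% of all tested genes, and its median was -0.05, against 0.00 for all tested genes. Both knockdown libraries lay below both control libraries in 11 members (22.4%), where 16.8% of all tested genes did so. Both lay above in 3 members, Usp8, Usp40 and Usp25 (6.12%), against 18.0% of all tested genes. The summed level of the family was 935.8 and 921.6 RPKM in knockdown oocytes and 974.0 and 956.0 RPKM in control oocytes, so the sums of the groups did not overlap. The size of the lean rested on single libraries: the median was -0.14 without knockdown replicate 1 and -0.02 without knockdown replicate 2. As for abundant genes at large, intervals were narrow for the abundant members. Of the 19 with over 100 CPM, 19 had a 95% interval that left out a 2-fold difference in either direction. For 18 it left out a 1.5-fold difference. Of all 2427 tested genes over 100 CPM, these numbers were 2426 and 2374. Over the whole family they were 38 and 29 of 49, against 7416 and 4570 of 15868 tested genes.

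**Figure D2:**
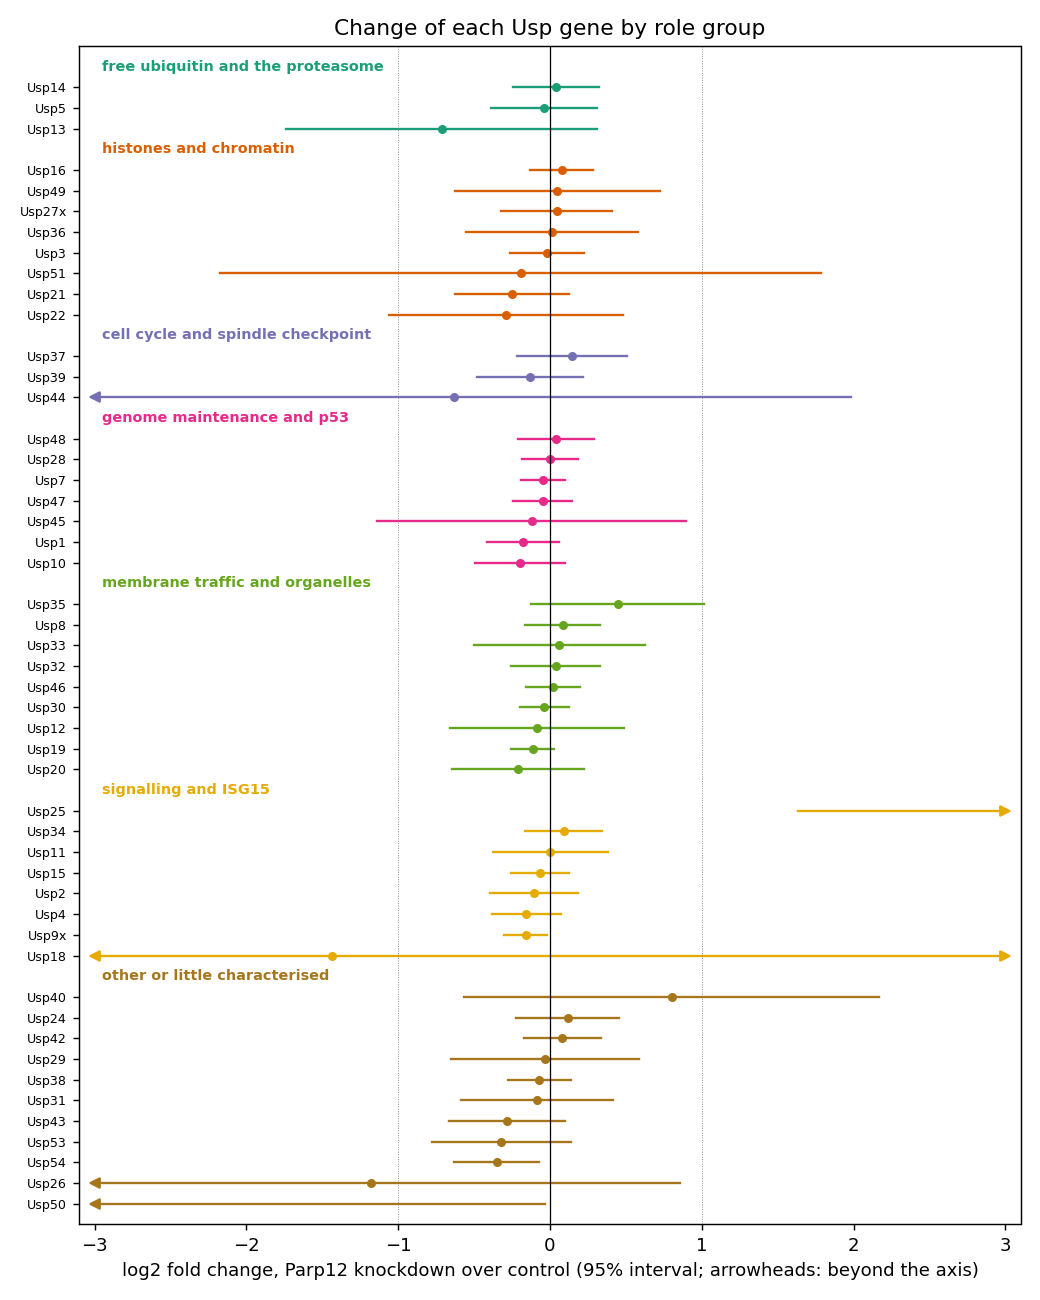
Log2 fold change (knockdown over control) of the Usp genes with its 95% interval, grouped by role. The axis ends at 3 in either direction, and arrows mark intervals that run past it. Of 49 intervals, those of Usp54, Usp9x and Usp50 stay below 0 and that of Usp25 above it.

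Usp54 had the smallest p of the family. Its coding gene on chromosome 14 (mm10, 20548912 to 20641063, minus strand) has a conserved cysteine codon, shown above. That codon was matched in a transcript other than the one with the longest coding sequence, and the protein is little characterised. It had 94.1 and 86.0 CPM in knockdown oocytes, against 106.5 and 123.9 CPM in control oocytes. Both knockdown libraries lay below both controls. This is a log2 fold change of -0.35 (SE 0.13, 95% interval -0.63 to -0.07) with an adjusted p = 0.835 by edgeR. Usp53, its closest relative and a partner of tight-junction proteins, had 37.5 and 41.1 CPM in knockdown oocytes and 56.7 and 40.4 CPM in control oocytes. The groups of Usp53 overlapped, and its log2 fold change was -0.32 (95% interval -0.78 to 0.14). It rested on single libraries, at -0.03 without control replicate 1 and -0.55 without control replicate 2.

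Usp9x had the narrowest interval of the 4 members with an unadjusted p under 0.05. The gene lies on chromosome X (mm10, 13071498 to 13173328, plus strand) and its product has been tied to endocytosis and to Smad4. It had 572.9 and 567.8 CPM in knockdown oocytes, against 638.1 and 635.4 CPM in control oocytes, so that replicates were close and the groups apart. It differed by -0.16 on the log2 scale (SE 0.07, 95% interval -0.30 to -0.02, adjusted p = 0.835 by edgeR). Of its stretches of 50 bases, 6.18% were also found in other annotated transcripts, whose reads could be counted to either gene.

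Among the enzymes of genome maintenance and p53 (Usp1, Usp7, Usp10, Usp28, Usp45, Usp47 and Usp48), 0 of 7 passed the test, with 6 log2 fold changes below 0 and 1 above, and a median of -0.05. The background for this and each later role group is 1 call among 15868 tested genes, Parp12. Over those genes 49.6% of log2 fold changes were below 0. Usp1 had 158.6 and 160.3 CPM in knockdown oocytes and 193.7 and 165.3 CPM in control oocytes. Its log2 fold change was -0.18 (95% interval -0.42 to 0.06), at -0.04 without control replicate 1 and -0.295 without control replicate 2. Of its sequence, 21.4% in stretches of 50 bases is shared with Gm5841, so its level is uncertain by that share. Usp7, at 767.3 and 839.0 CPM in knockdown oocytes and 834.4 and 822.2 CPM in control oocytes, had an interval of -0.19 to 0.10. The interval of Usp28 ran from -0.19 to 0.19, around a log2 fold change of -0.00 whose sign depended on the settings. Usp10, which binds G3bp1 and acts on p53, averaged 90.4 ± 7.75 CPM in knockdown oocytes and 103.5 ± 11.0 CPM in control oocytes.

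The enzymes of membrane traffic and organelles (Usp8, Usp12, Usp19, Usp20, Usp30, Usp32, Usp33, Usp35 and Usp46) had 0 of 9 calls, 5 log2 fold changes above 0 and 4 below, with a median of 0.02. Usp19 had the smallest p in this group, with 879.4 and 820.7 CPM in knockdown oocytes and 932.9 and 906.2 CPM in control oocytes (log2 fold change -0.11, SE 0.07, adjusted p = 0.841 by edgeR). Both knockdown libraries were below both controls for Usp19. Usp8 went the other way, at 122.8 and 130.8 CPM in knockdown oocytes and 119.5 and 119.2 CPM in control oocytes, with a log2 fold change of 0.08 (95% interval -0.16 to 0.33). Usp35, a regulator of mitophagy in human cells, had 40.4 and 32.2 CPM in knockdown oocytes and 19.9 and 34.3 CPM in control oocytes, a log2 fold change of 0.45 (95% interval -0.12 to 1.02). The lowest value of Usp35 was that of control replicate 1, without which the log2 fold change was 0.10, and its groups overlapped. Without control replicate 2 the log2 fold change of Usp35 was 0.86. Usp12 was higher in replicate 2 than in replicate 1 of either group, with 37.3 and 64.7 CPM in knockdown oocytes and 40.3 and 66.8 CPM in control oocytes.

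Histone and chromatin enzymes (Usp3, Usp16, Usp21, Usp22, Usp27x, Usp36, Usp49 and Usp51) had 0 of 8 calls, 4 log2 fold changes on either side of 0 and a median of -0.00. Usp16, which removes ubiquitin from histones in mitosis, was the member with most counts in this group and averaged 211.6 ± 9.63 CPM in knockdown oocytes and 200.3 ± 12.5 CPM in control oocytes. Usp3, also a histone deubiquitinase, averaged 167.1 ± 20.1 CPM in knockdown oocytes and 169.9 ± 12.1 CPM in control oocytes. Usp21 had the smallest p of the group, at 79.0 and 54.2 CPM in knockdown oocytes and 77.6 and 82.6 CPM in control oocytes, with overlapping groups. Usp36, a nucleolar enzyme, varied more within groups than between them, with 46.7 and 29.3 CPM in knockdown oocytes and 29.9 and 47.3 CPM in control oocytes.

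The enzymes of signalling and of the ubiquitin-like protein ISG15 (Usp2, Usp4, Usp9x, Usp11, Usp15, Usp18, Usp25 and Usp34) had 0 of 8 calls, with 3 log2 fold changes above 0, 5 below and a median of -0.09. Usp4, a relative of Usp15, had 144.0 and 161.7 CPM in knockdown oocytes and 170.7 and 168.2 CPM in control oocytes, groups that did not overlap. Its log2 fold change was -0.16 (95% interval -0.38 to 0.07). Usp34, an enzyme of the Wnt pathway, averaged 264.7 ± 19.1 CPM in knockdown oocytes and 246.9 ± 44.2 CPM in control oocytes. Usp18, which strips ISG15 from proteins and is induced by interferon, had 0 and 14 counts in knockdown oocytes and 0 and 42 counts in control oocytes. Its mean RPKM was the lowest of the family by exon length, while by transcript length Usp25 was lower (0.153 against 0.2 RPKM). Replicate 1 was at 0 in either group of Usp18, so no difference could be read at this depth.

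The enzymes that act on free ubiquitin and at the proteasome are Usp5, Usp13 and Usp14, and 0 of 3 passed. Usp5, which takes apart unanchored ubiquitin chains, averaged 55.5 ± 0.900 CPM in knockdown oocytes and 57.0 ± 3.24 CPM in control oocytes. Usp14, which trims chains on the proteasome, averaged 95.8 ± 2.29 CPM in knockdown oocytes and 93.5 ± 10.6 CPM in control oocytes, and 25.4% of its stretches are shared with the overlapping gene Thoc1 on the opposite strand. Usp13 had 7.80 and 4.55 CPM in knockdown oocytes and 7.47 and 13.5 CPM in control oocytes, with overlapping groups. Its log2 fold change was -0.71 (95% interval -1.74 to 0.31). With a library left out it ran from -1.18 (without knockdown replicate 1) to -0.26 (without control replicate 2).

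For the cell cycle, Usp37, which acts on cyclin A, Usp39 and Usp44, a regulator of the spindle checkpoint, had 0 of 3 calls. Usp37 averaged 62.0 ± 1.19 CPM in knockdown oocytes and 55.8 ± 7.67 CPM in control oocytes. Usp39 had 56.7 and 54.3 CPM in knockdown oocytes and 63.7 and 57.9 CPM in control oocytes, with a log2 fold change of -0.13 (95% interval -0.48 to 0.21). Usp44 was near the limit of counting, with 20 and 21 counts in knockdown oocytes and 42 and 28 in control oocytes.

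The remaining 11 members are little characterised or of other roles (Usp24, Usp26, Usp29, Usp31, Usp38, Usp40, Usp42, Usp43, Usp50, Usp53 and Usp54), and 0 of them passed. Usp43 had 42.1 and 43.1 CPM in knockdown oocytes and 49.3 and 54.3 CPM in control oocytes, groups that were apart. Its log2 fold change was -0.28 (95% interval -0.66 to 0.10), and 9130017K11Rik overlaps 12.8% of its exon length on the opposite strand. Usp38 averaged 213.5 ± 19.3 CPM in knockdown oocytes and 224.2 ± 1.65 CPM in control oocytes. Gm9725 overlaps 20.5% of the exon length of Usp38 on the opposite strand. Usp29, an imprinted gene expressed from the paternal allele, gave nearly the same value in every library, 17.5 and 17.0 CPM in knockdown oocytes and 17.4 and 18.1 CPM in control oocytes. Of its stretches, 14.9% are shared, mostly with Zim3 on the opposite strand.

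Over the roles, Usp2, Usp11, Usp20, Usp22, Usp24, Usp27x, Usp31, Usp32, Usp33, Usp42, Usp47, Usp48 and Usp49 had log2 fold changes from -0.29 (Usp22) to 0.12 (Usp24), each with a 95% interval that included 0. Among them the groups were apart in Usp47, which acts in base excision repair, with 223.7 and 213.2 CPM in knockdown oocytes and 226.5 and 224.9 CPM in control oocytes.

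**Figure D3:**
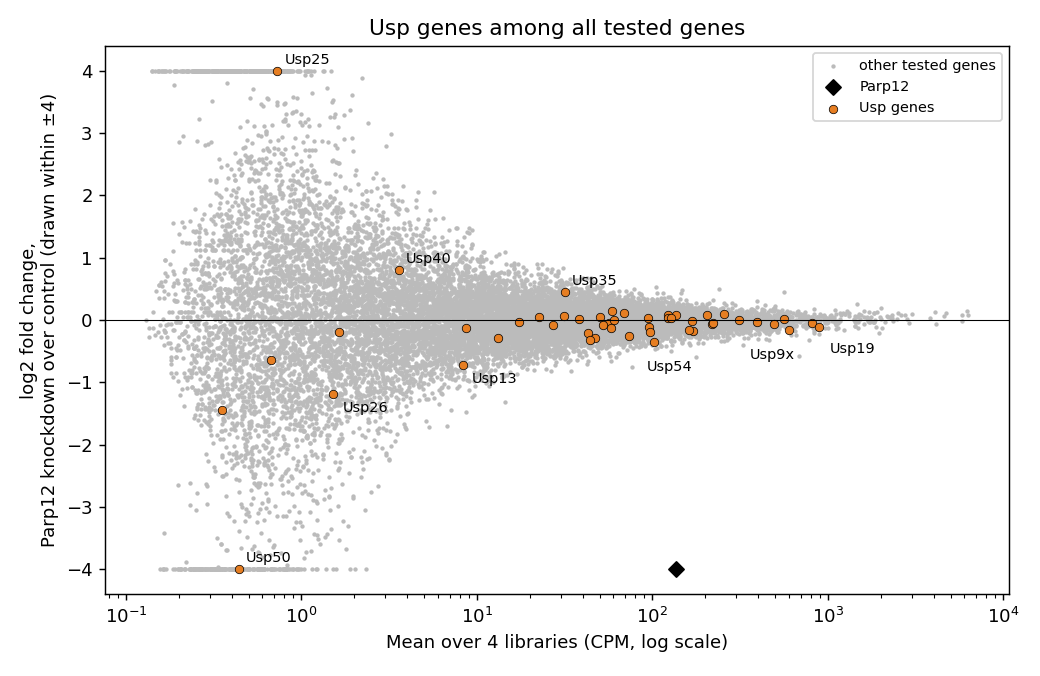
Log2 fold change (knockdown over control, drawn within 4 in either direction) against mean CPM on a log axis for all 15868 tested genes, with the Usp genes and Parp12 marked. The Usp genes lie within the spread of all genes at their level, Usp25 and Usp50 are drawn at the limits among genes under 1 CPM, and Parp12 stands apart at the lower limit.

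Among the lowest members, 2 were counted in only 1 of the groups. Usp25, a relative of Usp28 that acts in innate immune signalling, had 54 and 59 counts in knockdown oocytes and 0 and 0 in control oocytes. That is 1.27 and 1.65 CPM in knockdown oocytes, at least 20.9-fold higher than the 3 counts per library that a 0 allows in the controls (adjusted p = 0.835 by edgeR). Of the 2792 tested genes with a mean under 1 CPM, 8.67% had the same pattern of counts in both knockdown libraries and 0 in both controls, as did 1.55% of all tested genes. Usp50, a relative of Usp8, had 0 and 0 counts in knockdown oocytes and 43 and 33 in control oocytes, at least 11.4-fold lower (adjusted p = 0.835 by edgeR). The reverse pattern, 0 in both knockdown libraries with counts in both controls, was found in 5.55% of the genes under 1 CPM and in 1.01% of all tested genes.

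Usp25 lies on chromosome 16 (mm10, 77013706 to 77116780, plus strand), and 0 of its stretches of 50 bases were found in another gene. Usp50 lies on chromosome 2 (126709096 to 126783470, minus strand), where its span overlaps that of Usp8 on the opposite strand (126707328 to 126759297). No exon bases of Usp8 overlap another gene. Of the stretches of Usp50, 10.6% are shared with Polr2l, Gm10774 or Gm13015. Polr2l, a subunit common to the RNA polymerases, had 1798 and 1854 counts in knockdown oocytes and 2581 and 2538 in control oocytes, in the same direction as Usp50. The part of these shared sequences in the counts of Usp50 was not tested. Of the 4 blood markers, Cd68 had 130 and 74 counts in knockdown oocytes and 0 and 44 in control oocytes, while Ptprc was counted in 1 knockdown library and Hba-a1 and Hbb-bs in 1 control library each. The part of such cells in the counts of Usp25 was not tested.

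The start-site regions of this pair are shown because they differ in base composition. They come from RefSeq (GRCm38.p6), are 300 bases long around the start that RefSeq annotates, and have each CG in capitals. The region of Usp25 lies inside the GENCODE span given above, downstream of its start, and that of Usp50 spans the GENCODE start.
Usp25, chr16:77013819-77014118, plus strand: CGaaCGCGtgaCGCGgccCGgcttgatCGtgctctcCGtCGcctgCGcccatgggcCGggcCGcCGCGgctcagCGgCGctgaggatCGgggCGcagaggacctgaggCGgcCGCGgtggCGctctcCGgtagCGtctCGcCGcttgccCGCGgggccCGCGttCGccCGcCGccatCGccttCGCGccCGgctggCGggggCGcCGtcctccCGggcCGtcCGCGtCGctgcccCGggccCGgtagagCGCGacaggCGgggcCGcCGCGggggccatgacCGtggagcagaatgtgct
Usp50, chr2:126783411-126783710, minus strand: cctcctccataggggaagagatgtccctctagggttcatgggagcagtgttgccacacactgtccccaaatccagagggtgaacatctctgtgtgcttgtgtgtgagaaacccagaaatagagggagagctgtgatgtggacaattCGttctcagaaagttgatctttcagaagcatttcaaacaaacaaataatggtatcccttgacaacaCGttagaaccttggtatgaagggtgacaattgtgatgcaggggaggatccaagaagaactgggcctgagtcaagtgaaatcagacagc
The region of Usp25 held 54 CG and 79.0% G or C, and that of Usp50 held 2 CG and 47.0%. A RefSeq start-site region was matched for 37 of 49 members, and its median CG count was 28, against 7 over 32851 regions of 27025 genes. Those genes were not limited to the tested ones and some had several regions, so the sets are unlike. At least 10 CG were present in 83.8% of the matched members and in 43.5% of all regions. TATAAA, searched in the sequence as given and not in its reverse complement, was found in 1 of the 37 matched members and in 8.32% of all regions. The 31 members with at least 10 CG had a median level of 13.9 RPKM, ranging from 0.14 to 126, and the 6 with fewer (Usp10, Usp11, Usp26, Usp50, Usp51 and Usp54) had a median of 5.44 RPKM. These 6 ranged from 0.141 to 12.8 RPKM, and Usp25, at 0.14 RPKM, was among the CG-rich. Whether level follows the CG count was not tested.

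Of the other members below 10 CPM, 7 in number, 3 had groups that were apart. The knockdown values were the lower in Usp26 and Usp44, as in 16.8% of all tested genes, and the higher in Usp40, as in 18.0%. Usp26, an X-linked gene known from the testis, had 35 and 38 counts in knockdown oocytes and 106 and 76 in control oocytes, with a log2 fold change of -1.18 (95% interval -3.22 to 0.86). Usp40 had 206 and 153 counts in knockdown oocytes and 134 and 92 in control oocytes, with a log2 fold change of 0.80 (95% interval -0.56 to 2.17). The intervals of all 3 included 0. Usp51, a histone deubiquitinase encoded on the X chromosome, had 86 and 36 counts in knockdown oocytes and 107 and 46 in control oocytes, and its groups overlapped. Usp45, which acts on the repair factor Ercc1, had 508 and 160 counts in knockdown oocytes and 450 and 345 in control oocytes, a wider spread within the knockdown than between the groups.

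**Figure D4:**
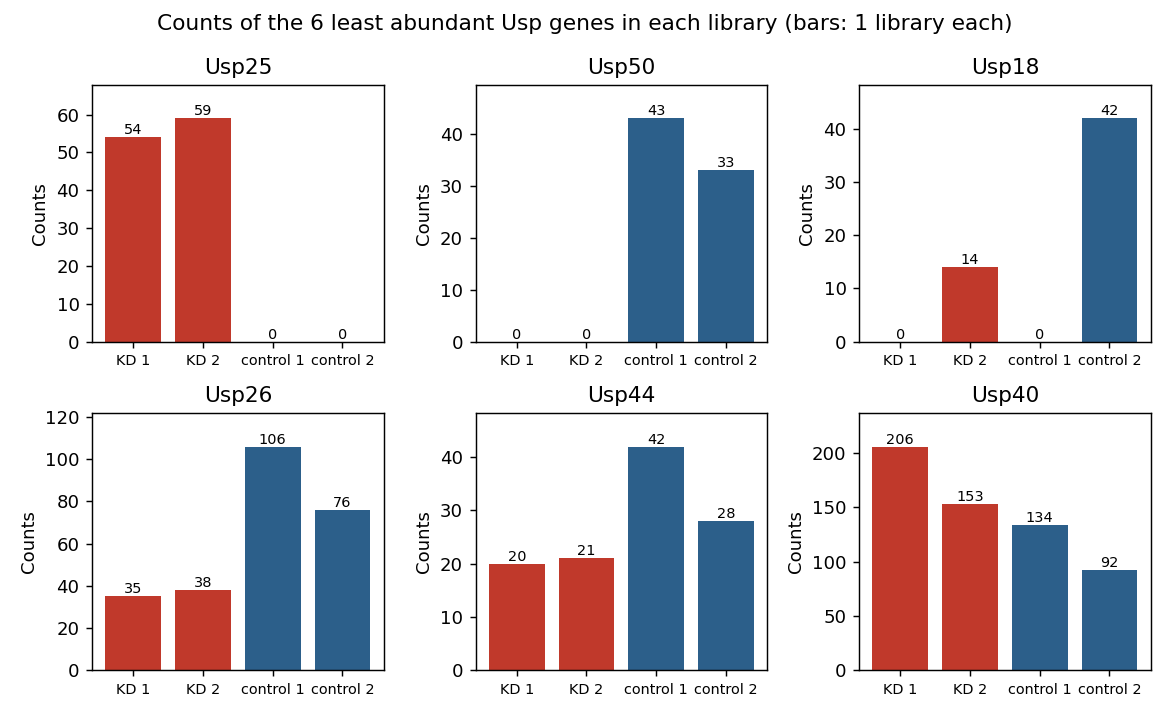
Counts of the 6 Usp genes with the lowest mean RPKM by exon length, with a bar for each of the 2 knockdown (KD) and 2 control libraries. Usp25 has 54 and 59 counts in knockdown and 0 in control libraries, Usp50 has 0 in knockdown and 43 and 33 in control libraries, and Usp18 has counts in replicate 2 of both groups only.

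Pairs of related enzymes were compared in RPKM by the summed exon length and again by the length of the transcript with the longest coding sequence. By exon length the same partner was the more abundant in all 4 libraries for each of 17 pairs, and by transcript length this order held in all 4 libraries for 14 of them. The 3 others were Usp2 and Usp21, Usp20 and Usp33, and Usp15 and Usp4. Usp28 outweighed Usp25, with 53.3 RPKM against 0.28 in knockdown oocytes and 53.2 RPKM against 0 in control oocytes, although 57.6% of aligned coding bases are identical. The ratio was 222 and 166 in the knockdown libraries and 4380 and 3590 in the control libraries, where Usp25 was at 0 and is set at 3 counts per library. Usp8 had 30.2 RPKM against 0 for Usp50 in knockdown oocytes, and 28.5 against 0.283 RPKM in control oocytes. Usp46 exceeded Usp12, the other partner of Wdr48 and Wdr20, by 6.41 times over all libraries by exon length and 10.3 times by transcript length (72.9 and 11.0 RPKM in knockdown oocytes, 71.6 and 11.5 RPKM in control oocytes, by exon length). Their coding sequences are 77.2% identical, and their stretches around the cysteine codon are among those printed above.

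Usp27x and Usp22, which share the deubiquitinase module partners of the SAGA coactivator, are 77.4% identical in coding bases. Usp27x was the higher, at 12.0 RPKM against 2.41 in knockdown oocytes and 11.6 RPKM against 2.97 in control oocytes. Over all libraries Usp5 stood 11.1 times above Usp13 by exon length and 15.9 times by transcript length. Usp16 stood 15.6 times above Usp45 by exon length and 44.4 times by transcript length, and single libraries ran from 11.3 to 32.2 times by exon length. Usp49 stood 15.8 times above Usp44 by exon length and 10 times by transcript length, and single libraries ran from 9.88 to 29.6 times by exon length. Usp49 shares 49.3% of its stretches with Gm20517, which had 6 and 0 counts in knockdown oocytes and 0 and 0 in control oocytes, so the level of Usp49 is uncertain. For 3 pairs no order could be given. The ratio of Usp2 to Usp21 was 1.29 by exon length and 0.741 by transcript length, and that of Usp15 to Usp4 was 1.59 by exon length and 0.97 by transcript length. The ratio of Usp20 to Usp33 was 1.45 by exon length and 1.11 by transcript length, where the order held in 2 of the 4 libraries.

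**Figure D5:**
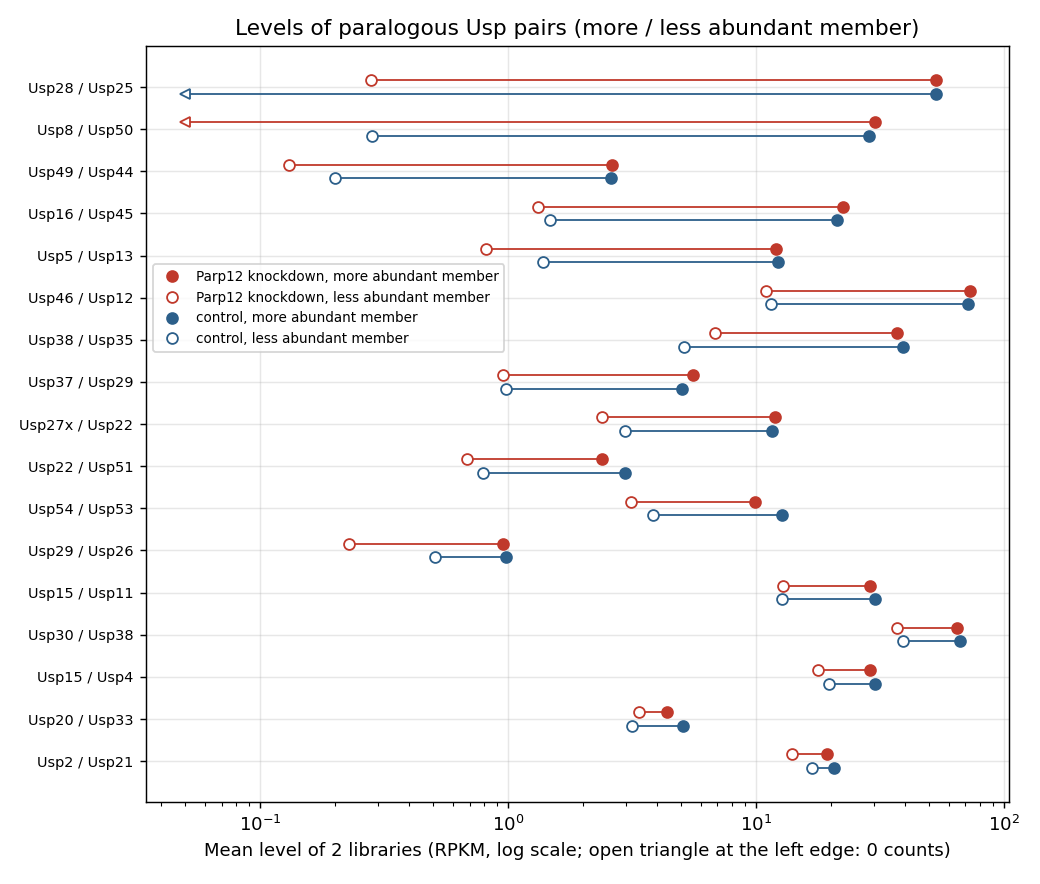
Mean level in RPKM on a log axis of both members of each of 17 pairs of related Usp genes, in the 2 knockdown and the 2 control libraries, with open triangles for 0 counts. RPKM here uses the summed exon length, by which the same member is higher in knockdown and control oocytes in each pair. By transcript length the order did not hold in every library for Usp2 and Usp21, Usp20 and Usp33, and Usp15 and Usp4.

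The genes that work with the family were likewise without calls. Of 19 partners of Usp enzymes listed, 18 were tested and 0 passed, with 10 log2 fold changes above 0, 8 below and a median of 0.06. Among all 15868 tested genes 1 passed, Parp12, 49.6% of log2 fold changes were below 0 and the median was 0.00. Wdr20, the activator of Usp12 and Usp46, averaged 422.3 ± 24.7 CPM in knockdown oocytes and 460.8 ± 22.9 CPM in control oocytes. Wdr48, which activates Usp1, Usp12 and Usp46, averaged 94.3 ± 11.6 CPM in knockdown oocytes and 99.4 ± 3.24 CPM in control oocytes. Gmps, the GMP synthetase that binds Usp7, averaged 292.1 ± 29.5 CPM in knockdown oocytes and 288.4 ± 12.4 CPM in control oocytes. Atxn7l3, the SAGA subunit that Usp22, Usp27x and Usp51 depend on, did not pass the filter on low counts, with 5 and 66 counts in knockdown oocytes and 0 and 5 in control oocytes.

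Other enzymes listed as deubiquitinases, among them Cyld, Uspl1 and Cops5, fell outside the symbol rule. They gave 0 calls among 35 tested, where 1 of 15868 tested genes was called. Of their log2 fold changes 22 were above 0 and 13 below, against 8004 and 7864 of all tested genes. Their median was 0.06, against 0.00 for all tested genes and -0.05 for the Usp genes. At an unadjusted p under 0.05 there were 2 with higher values in knockdown oocytes, Zup1 and Stambpl1, where 2.94% of all tested genes were, and 1 with lower values, Vcpip1, where 2.57% were. No test was made of the difference between these lists. Uchl1, an abundant ubiquitin hydrolase of oocytes, had 1460 RPKM in knockdown oocytes and 1382 RPKM in control oocytes, above every Usp gene. Zup1, which cuts long ubiquitin chains, had 137.9 ± 3.06 CPM in knockdown oocytes and 106.6 ± 1.48 CPM in control oocytes, a log2 fold change of 0.37 that did not pass after adjustment. The 4 genes that encode ubiquitin had 0 calls, with 0.01 as the median of their log2 fold changes. Ubb averaged 1704 ± 95.5 CPM in knockdown oocytes and 1651 ± 20.9 CPM in control oocytes.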

How the data were processed

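The authors' deposited values are unnormalised read counts for each gene, whole numbers whose totals differ between libraries, with the exon coordinates and summed exon length of each gene, per the file headers. The build was mm10, per the submitters' processing notes, which also list featureCounts 2.0.0, STAR 2.7.5b, DESeq2 1.28.1 and Trim Galore 0.6.4 without their roles. Per the labels' protocols, messenger RNA was taken with poly(A) beads. No source used here gives the setting for strand or for reads with several alignments. Genes that overlap or share sequence with another gene are uncertain for this reason, which touched 9 members at over 10% of their exon length or 50-base stretches. These were Usp1, Usp14, Usp29, Usp33, Usp34, Usp38, Usp43, Usp49 and Usp50.

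Sample titles gave the groups and replicate numbers. All 49 members had the same coordinates in GENCODE vM21 and all passed filterByExpr, which left 15868 genes. In R 4.3.3 the counts were fitted with edgeR 4.0.16 (TMM, glmQLFit with robust and legacy=FALSE, glmQLFTest, two-sided), and p-values were adjusted over all tested genes by Benjamini-Hochberg. CPM and RPKM used library totals and the deposited exon length, and SDs are over 2 libraries. Replicates differed by a chi-square per degree of freedom of 33.9 (knockdown) and 39.6 (control), so no library was in 2 copies. Coding sequences were aligned with MAFFT 7.526. Alternatives used DESeq2 1.42.0 and limma 3.58.1.

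Members and gene lists were chosen with earlier results of these data known. Named with values were the 10 most abundant members, the 10 with the smallest p, those at 0 in 1 group, members of 17 related pairs and Parp12. Further members, partners and other genes were named after their values were seen. The scripts were tested on simulated data.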

Additional observations from a re-analysis of the deposited data

How the results depend on the processing

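Among the 49 Usp genes 0 were called under each alternative run with edgeR or limma-voom, and 2 with DESeq2. Of all genes, 1 was called, against 8 with a minimum of 1 CPM in both libraries of a group (2 higher, 6 lower), 305 with DESeq2, 0 with limma-voom (746 at an unadjusted p under 0.05) and 1 to 2 with a library left out, where the single library left was taken to vary as the other group does. The median log2 fold change of the Usp genes ran from -0.135 to -0.0152 with a library left out. The labels do not say that replicate numbers pair the samples, and same-numbered libraries did not deviate together (correlation 0.008). With the replicate number as a block, 1 gene was called in all and 0 Usp genes, with 686 at an unadjusted p under 0.05 in place of 874, and the median was -0.05. Usp28, at a log2 fold change of -0.00, changed sign without scaling factors (0.0023), without a filter (0.0029), with the block (0.00045), with limma-voom (0.0012) and with edgeR's legacy fit (0.000397), an alternative chosen after seeing the data. Of 203 values for 17 named genes, 189 kept their direction and side of the threshold. With a library left out, values that crossed 0 ran from -0.079 to 0.087 for Usp28, from -0.18 to 0.057 for Usp15, from -0.0905 to 0.15 for Usp46, from -0.11 to 0.018 for Usp7, and from -0.17 to 0.016 for Usp38. The adjusted p ranged from 0.0122 to 0.994 for Usp25, from 0.0280 to 0.994 for Usp9x, from 0.0650 to 0.994 for Usp54 and from 0.114 to 0.994 for Usp50, which was not tested under the 1 CPM minimum. By transcript length, also chosen after seeing the data, 8 of the 10 most abundant members were the same, and 14 of 17 related pairs kept their order in every library. The cause of these changes was not tested. Members under 10 CPM, 9 of 49, could not exclude a 2-fold difference at this depth. Of all tested genes, 79 of 4644 at 1 to 10 CPM and 0 of 2792 under 1 CPM excluded it.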
